A study of Homo sapiens with 20 samples.

Results

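The androgen-responsive human prostate cancer line LNCaP was compared in 2 states that both ended with dihydrotestosterone (DHT), a potent natural androgen: cells held with roscovitine, which the labels call late G1 arrested, and unarrested cells, which they call CDT+DHT treated. The 6 arrays, chosen by these titles, are 3 of each state among the 20 arrays of a study that asked which transcripts depend on the cell cycle phase under DHT. Late G1 arrested cells grew in hormone-proficient medium, had roscovitine at 5 µg/mL for the last 24 h and DHT at 10 nM for the last 3 h (n = 3). CDT+DHT treated cells spent 72 h in a medium the labels name CDT, with DHT at 10 nM added 3 h before harvest (n = 3). Drug and medium therefore changed together, and their effects cannot be told apart between these 2 groups. The comparison that holds medium and DHT equal used the other arrests: early G1 (PD-0332991 at 0.5 µM for 24 h, n = 3), early S (aphidicolin at 2 µg/mL for 24 h, n = 2), late S (hydroxyurea at 1 mM for 24 h, n = 3) and G2/M (aphidicolin at 2 µg/mL for 15 h, washout, then nocodazole at 50 ng/mL for 9 h, n = 3). The remaining group, CDT, had the CDT medium for 72 h and ethanol for 3 h (n = 3). All 7 groups were of the same line, and nothing in the labels says whether the arrays of a group came from separate cultures. A p-value here therefore reflects array-to-array spread, which may be technical.

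Roscovitine is a purine that competes with ATP in several cyclin-dependent kinases. CDK2 with cyclin E or A carries cells from G1 into S phase, and CDK1 with cyclin B carries them into mitosis. CDK7 and CDK9, which roscovitine also inhibits, phosphorylate the tail of the largest subunit of RNA polymerase II as transcription starts and moves into elongation. Genes needed for DNA replication are switched on by E2F factors late in G1, while genes needed for mitosis are held off in G1 by repressor complexes that bind a short promoter element, the cell cycle genes homology region, and are switched on later by complexes with MYBL2 and FOXM1. In luminal prostate cells androgen induces the kallikrein genes KLK3 (prostate-specific antigen) and KLK2.

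Array medians of the deposited linear intensities were 6.23, 7.30 and 8.14 in late G1 and 7.84, 8.17 and 5.44 in CDT+DHT, so CDT+DHT array 3 was the dimmest of the 20. Pairs of arrays correlated at 0.831 to 0.879 within late G1, at 0.841 to 0.935 within CDT+DHT and at 0.630 to 0.790 between them. CDT+DHT array 3 was also 1 of 4 arrays (with late S 1, early G1 2 and CDT 1) with the highest scores on the main axis of deviations from group means, an axis that held 29.15% of that variation. The counts of calls and a few of the differences are given below with and without it. Of 20 luminal prostate markers 16 were measured, 0 were called in either direction, and their mean log2 level per array was 5.72 to 6.0 in late G1 and 5.28 to 6.20 in CDT+DHT. The same range was 3.38 to 3.58 and 3.32 to 3.67 for 7 basal markers, 2.94 to 3.15 and 2.90 to 3.88 for 12 stromal markers, and 2.29 to 2.61 and 1.98 to 3.0 for 10 leukocyte markers, all with 0 calls.

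Most members of every list did not pass, and those lower in roscovitine-arrested cells included the mitotic regulators PLK1, CDC25B, CDCA3 and BIRC5, the largest RNA polymerase II subunit POLR2A, the alpha tubulins TUBA1A and TUBA1B, 5 histones, and the DNA synthesis genes POLA2, POLE and RRM2. Of 18417 genes tested, 90 were lower in late G1 (0.489% of genes) and 5 were higher (0.0271%) at an adjusted p under 0.05 in limma. A gene is called here when it passed that threshold. The share of 0.489% stands beside every count below of list members called lower against CDT+DHT. In all 95 the 3 late G1 arrays and the 3 CDT+DHT arrays did not overlap, which also held downward for 2578 of all genes (14%) and upward for 1982 (10.8%). The median difference over all genes was -0.07 on the log2(intensity + 1) scale, on which all differences are late G1 minus CDT+DHT, with their standard error, and understate the change of dim genes. Without the adjustment 2580 genes had p under 0.05, 1015 of them higher and 1565 lower.

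The number of calls depended on single arrays. It was 47, 54 and 27 lower genes without late G1 array 1, 2 and 3, and 10, 13 and 29 without CDT+DHT array 1, 2 and 3. Higher genes numbered 12, 2 and 0 without late G1 array 1, 2 and 3, and 0, 1 and 0 without CDT+DHT array 1, 2 and 3. With only the 6 arrays in the fit there were 0 calls in either direction, and with a pseudocount of 16 there were 402 lower and 41 higher. Of the 90 lower genes 10 passed in each of the 6 fits that left out 1 array: BIRC5, CDC25B, CDCA3, DAB1, PLK1, POC1A, POLR2A, TIMP2, TOX2 and TUBA1A. POC1A and TIMP2 fall outside the naming rule and were picked for this after their values were seen.

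**Figure D1:**
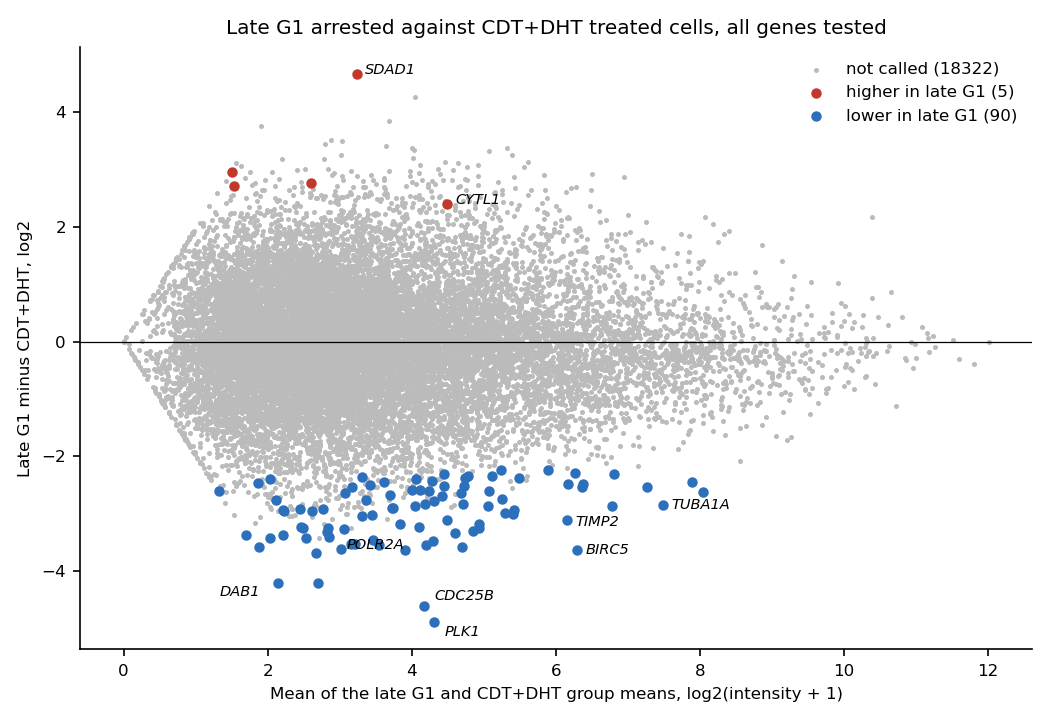
Log2 difference of late G1 minus CDT+DHT (vertical axis) against the mean of both group means (horizontal axis, log2(intensity + 1)) for 18417 genes. Blue points are the 90 genes lower in late G1, red points the 5 higher and grey points the rest. The lower genes reach -4.89 (PLK1), and several, such as BIRC5, TUBA1A and TIMP2, lie among the brighter genes.

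The largest fall was that of PLK1, the kinase that drives centrosome maturation and entry into mitosis. Its intensity was 4.28, 3.1 and 1.24 in the late G1 arrays, against 122, 112 and 91.1 in the CDT+DHT arrays. No late G1 array came within an order of magnitude of a CDT+DHT array, and the difference was -4.89 ± 0.55 (adjusted p = 0.000521). In bulk RNA, fewer cells in G2 and mitosis and less RNA per cell cannot be told apart. CDC25B, the phosphatase that activates CDK1 at the start of mitosis, read 4.49, 1.47 and 2.54 in the late G1 arrays, against 88.2, 77.9 and 101 in the CDT+DHT arrays, a difference of -4.62 ± 0.55 (adjusted p = 0.000548). It was the only call among 5 measured members of the CDC25 and WEE1 list (20%, against 0.489% of all genes). Differences in that list ran from -4.62 to 1.25, with a median of -0.73. CDCA3, which helps the destruction of the mitotic inhibitor WEE1, stood at 0.00465, 2.45 and 0.00442 in the late G1 arrays, against 26.1, 21.7 and 34.9 in the CDT+DHT arrays, and late G1 arrays 1 and 3 were close to 0 (-4.21 ± 0.51, adjusted p = 0.000548). BIRC5 (survivin), a subunit of the chromosomal passenger complex, was brighter and tight in both groups, with 23.1, 21.1 and 19.5 in the late G1 arrays, against 309, 274 and 247 in the CDT+DHT arrays. That was a difference of -3.64 ± 0.46 (adjusted p = 0.000782), and a second feature of the gene gave -3.90. These 4 genes passed in all 6 fits that left out 1 array.

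Another pair of called regulators act on the anaphase-promoting complex, the ubiquitin ligase that ends mitosis. CDC20, its coactivator, had 3.08, 3.62 and 3.84 in the late G1 arrays, against 30.4, 23.5 and 20.9 in the CDT+DHT arrays (-2.51 ± 0.50, adjusted p = 0.031). UBE2C, its ubiquitin-conjugating enzyme, had 9.45, 6.93 and 4.3 in the late G1 arrays, against 52.2, 39.3 and 46.2 in the CDT+DHT arrays (-2.62 ± 0.57, adjusted p = 0.0487). The groups were apart in both genes, but with 1 array left out neither passed in any of 6 fits, with adjusted p up to 0.158 and 0.193 without CDT+DHT array 1. The list of mitotic kinases and regulators had 5 of 27 members called lower (18.5%, against 0.489% of all genes) and 0 higher. Its median difference was -1.21, against -0.07 over all genes. Arrays did not overlap downward in 14 of the 27 (51.9%, against 14% of all genes).

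The promoters of 4 called mitotic genes are shown because each holds the short letters of the cell cycle genes homology region, TTTGAA on either strand, and the CCAAT letters that often stand beside it. Sequences are from RefSeq (GRCh38.p14), 250 bases before the annotated start of the gene, 5′ to 3′ along the gene. Capitals mark TTTGAA or its complement TTCAAA, and CCAAT. The only TTTGAA of CDCA3 and a further TTTGAA of SPC25 each begin 3 bases before the start. They run past the printed end and are not in capitals.
PLK1 (chr16:23678639-23678888, plus strand): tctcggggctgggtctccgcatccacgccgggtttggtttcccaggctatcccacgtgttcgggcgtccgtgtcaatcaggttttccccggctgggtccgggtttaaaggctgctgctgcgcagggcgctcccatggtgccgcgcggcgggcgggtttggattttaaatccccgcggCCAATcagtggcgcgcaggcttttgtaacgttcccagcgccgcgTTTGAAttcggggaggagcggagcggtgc
CDCA3 (chr12:6851287-6851536, minus strand): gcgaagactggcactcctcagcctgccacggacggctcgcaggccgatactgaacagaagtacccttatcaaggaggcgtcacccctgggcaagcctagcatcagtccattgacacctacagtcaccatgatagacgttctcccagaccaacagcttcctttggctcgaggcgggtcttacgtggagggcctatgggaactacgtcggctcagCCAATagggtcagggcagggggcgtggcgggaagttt
CDC20 (chr1:43358731-43358980, plus strand): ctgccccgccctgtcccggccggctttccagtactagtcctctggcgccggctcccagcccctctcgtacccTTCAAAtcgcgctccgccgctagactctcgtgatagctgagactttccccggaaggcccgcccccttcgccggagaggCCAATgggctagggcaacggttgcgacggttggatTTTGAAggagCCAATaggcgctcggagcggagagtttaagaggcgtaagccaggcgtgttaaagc
SPC25 (chr2:168890431-168890680, minus strand): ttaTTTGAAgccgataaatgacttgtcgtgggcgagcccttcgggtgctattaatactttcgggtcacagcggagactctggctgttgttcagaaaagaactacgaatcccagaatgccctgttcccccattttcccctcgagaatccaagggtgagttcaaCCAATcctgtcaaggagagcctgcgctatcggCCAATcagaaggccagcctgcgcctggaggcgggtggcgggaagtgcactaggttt

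Letters like these were common in the mitotic lists as a whole. A promoter window of 300 bases held 250 before and 50 after the start. It was found for 106 of 126 measured members of the mitotic, CDC25 and RB-E2F lists (84.13%). Of these windows, 51.89% held TTTGAA on either strand, against 11.91% of 14239 windows of all genes tested. The share was 15.43% in 27305 promoters of all genes in the RefSeq table. Of the 90 genes called lower, 74 (82.22%) had a window, and 17.57% of those held TTTGAA. The mitotic, CDC25 and RB-E2F lists held 11 of the 90. Of these, 8 had a window and 4 (50%) held TTTGAA, near the share of those lists as a whole. Those 4 are the genes printed above. CCAAT on either strand stood in 61.32% of the mitotic windows, 36.28% of the windows of genes tested and 35.7% of all RefSeq windows. The E2F letters TTTCCCGC or TTTGGCGC stood in 33.33% of the windows of 51 of 59 replication and nucleotide genes. They stood in 3.1% of the windows of genes tested and in 2.31% of all RefSeq windows. These matches describe the letters of the windows and not bound sites, and the motif shares follow from the gene lists as much as from the arrays.

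At the kinetochore, which ties chromosomes to the spindle, both called genes encode subunits of the NDC80 complex. SPC24 had 1.74, 4.26 and 4.33 in the late G1 arrays, against 55.2, 63.2 and 40.9 in the CDT+DHT arrays (-3.65 ± 0.64, adjusted p = 0.0123). SPC25 had 4.88, 4.8 and 0.648 in the late G1 arrays, against 23.4, 28.8 and 40.5 in the CDT+DHT arrays (-3.02 ± 0.65, adjusted p = 0.0429). Late G1 arrays were all below the CDT+DHT arrays in both. SPC24 passed in 3 of 6 fits without 1 array (adjusted p up to 0.0926, without CDT+DHT array 2) and SPC25 in 0 (up to 0.189, without late G1 array 3). The list of 33 measured kinetochore and centromere genes had 2 called lower (6.06%, against 0.489% of all genes) and a median of -0.56. Arrays did not overlap downward in 8 of the 33 (24.2%, against 14% of all genes).

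Among 13 mitotic kinesins the median was -0.89 and 1 was called lower (7.69%, against 0.489% of all genes). KIF20A, which works in cytokinesis, had 3.19, 3.46 and 0.0414 in the late G1 arrays, against 25.3, 23.4 and 26.7 in the CDT+DHT arrays (-3.28 ± 0.73, adjusted p = 0.0487). It was at 0.0758 with a pseudocount of 16 and passed in 0 of 6 fits without 1 array (adjusted p up to 0.208, without late G1 array 3). KIFC1, a minus-end kinesin that focuses spindle poles, was just short of the threshold at -2.40 ± 0.55 (adjusted p = 0.053). KIF2C, a microtubule depolymerase of the centromere, pointed the other way, with 148, 151 and 173 in the late G1 arrays, against 36.7, 52.2 and 31.6 in the CDT+DHT arrays. Its 3 late G1 arrays were all above the CDT+DHT arrays, and the difference of 1.97 ± 0.49 did not pass (adjusted p = 0.074). Of 29 genes of chromosome condensation, spindle and cytokinesis 1 was called, TACC3, a stabiliser of spindle microtubules, with 2.1, 5.07 and 2.31 in the late G1 arrays, against 34, 30.6 and 16.6 in the CDT+DHT arrays (-2.76 ± 0.61, adjusted p = 0.0487, up to 0.201 and passing in 0 of 6 fits without 1 array, the highest without CDT+DHT array 1). The median of that list was -0.68.

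**Figure D2:**
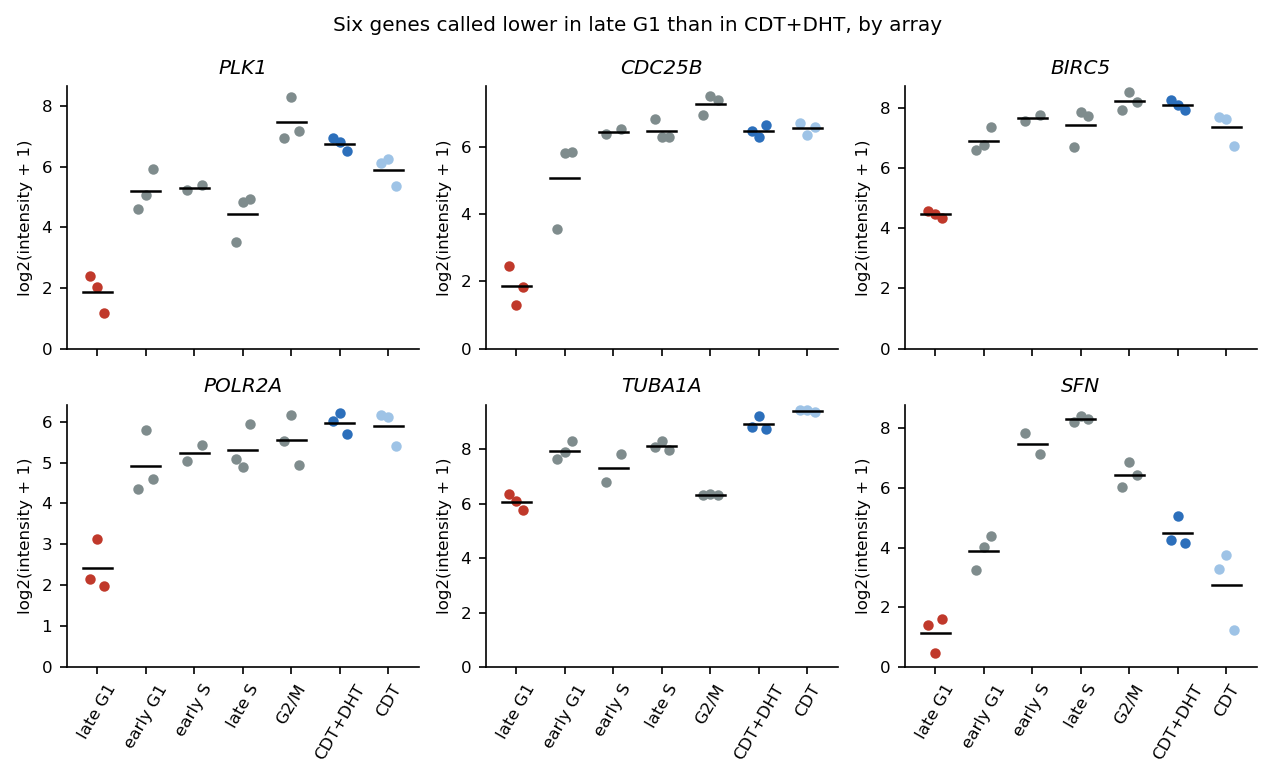
Intensity of 6 genes in each of the 20 arrays, as log2(intensity + 1), by group with late G1 (red) at the left, the other arrests in grey and CDT+DHT (dark blue) and CDT (light blue) at the right. Points are arrays and lines are group means. The late G1 arrays lie below every CDT+DHT array in all 6 genes, and TUBA1A alone of the 6 has another arrest, G2/M, near the late G1 level.

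The transcription factors above these genes moved in part. FOXM1, which switches on genes of G2 and mitosis, had 10.9, 5.57 and 4.63 in the late G1 arrays, against 106, 69.95 and 58.9 in the CDT+DHT arrays (-3.34 ± 0.52, adjusted p = 0.00562). It was the only one of 19 measured RB and E2F family members called, with no overlap between groups, and passed in 5 of 6 fits without 1 array (adjusted p = 0.0635 without CDT+DHT array 1). MYBL2, its partner on late cell cycle promoters, read 0.352, 5.99 and 0.00229 in late G1 and 24.6, 19.1 and 9.93 in CDT+DHT (-3.07 ± 0.70, adjusted p = 0.0546), and E2F1, the activator of replication genes, read 6.98, 4.63 and 8.69 in late G1 and 31.4, 33 and 25.8 in CDT+DHT (-2.03 ± 0.58, adjusted p = 0.123). Neither passed, although their arrays did not overlap. The list's median was -0.62.

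Of 20 measured interphase cyclins, kinases and their small subunits, 0 were called, and the list's median was -0.78. CCNB1, the cyclin of CDK1, had 49.5, 35.8 and 58.8 in the late G1 arrays, against 158, 200.3 and 129.9 in the CDT+DHT arrays, a gap with no overlap that did not pass at -1.74 ± 0.48 (adjusted p = 0.0998). CCNE1 and CCNE2, the E cyclins that partner CDK2 late in G1, differed by -0.82 ± 0.60 (adjusted p = 0.579) and 1.24 ± 0.68 (adjusted p = 0.431). CCND1, the D cyclin of early G1, differed by 1.22 ± 0.70 (adjusted p = 0.458). The kinases that roscovitine acts on showed no called difference in RNA, with CDK1 at 0.21 ± 0.79 (adjusted p = 0.942), CDK2 at -0.14 ± 0.49 (adjusted p = 0.937), CDK7 at 1.29 ± 0.67 (adjusted p = 0.401) and CDK9 at -0.37 ± 0.45 (adjusted p = 0.773). CDK1 was dim in both groups, with 4.13, 6.72 and 6.56 in late G1 and 8.26, 4.09 and 3.08 in CDT+DHT, and its difference was -0.04 without CDT+DHT array 3. Of 7 CDK inhibitors 0 were called. CDKN1A (p21) had 70.3, 49.6 and 70.1 in late G1 and 105, 86.7 and 68.4 in CDT+DHT, which overlapped, and CDKN1B (p27) differed by 0.007 (adjusted p = 0.997). CDKN3, a phosphatase that dephosphorylates CDK2, was the lowest of that list at -2.11 ± 0.69 (adjusted p = 0.175).

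**Figure D3:**
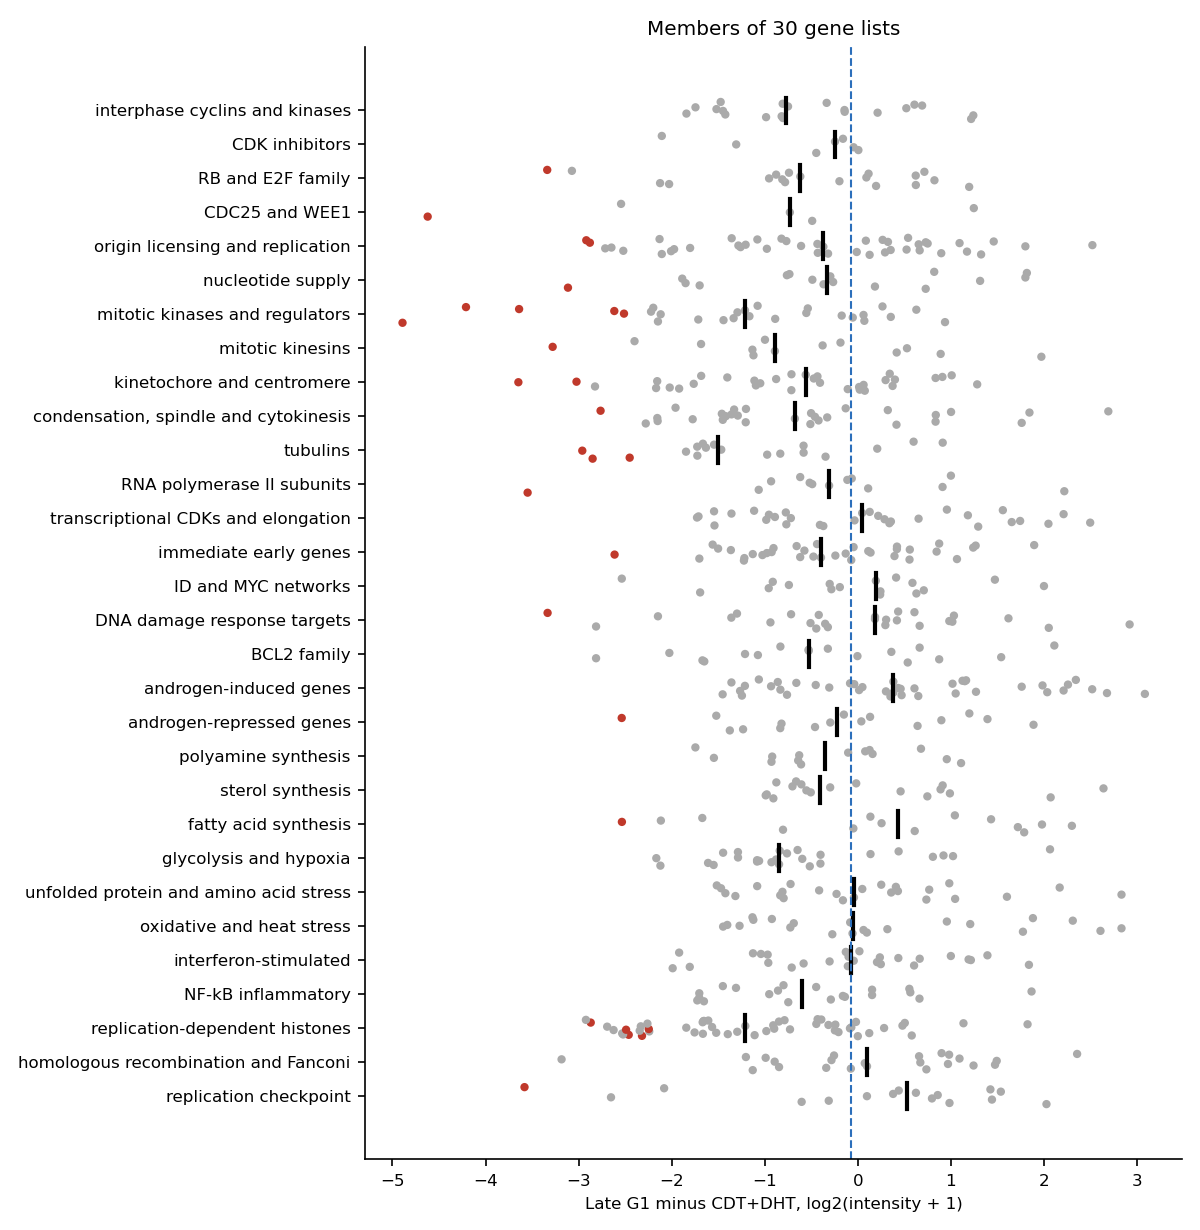
Log2 difference of late G1 minus CDT+DHT for each measured member of 30 gene lists, 1 row a list. Red points are called genes, grey points are not called, black bars are list medians, and the blue dashed line is the median of all genes (-0.07). Medians run from -1.51 for tubulins to 0.53 for the replication checkpoint, and all 5 called genes of the mitotic kinases and regulators lie at the left.

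DNA synthesis genes moved in few members. Of 43 measured genes of origin licensing and replication 2 were called lower and 0 higher, with a median of -0.37. POLA2, a subunit of the polymerase alpha-primase that starts each strand, had 4.45, 7.01 and 4.21 in the late G1 arrays, against 45, 47.9 and 39.1 in the CDT+DHT arrays (-2.88 ± 0.55, adjusted p = 0.0223). POLE, the catalytic subunit of the leading-strand polymerase epsilon, had 0.743, 1.83 and 0.574 in the late G1 arrays, against 19.5, 14.2 and 9.78 in the CDT+DHT arrays (-2.92 ± 0.60, adjusted p = 0.0357). Both sets of late G1 arrays were below all CDT+DHT arrays, but POLA2 passed in 1 and POLE in 0 of 6 fits without 1 array, with adjusted p up to 0.118 (without CDT+DHT array 2) and 0.178 (without CDT+DHT array 1). CDC45, a part of the replicative helicase, just missed at -2.71 ± 0.62 (adjusted p = 0.0546), as did MCM2 at -2.01 ± 0.47 (adjusted p = 0.0576). MCM5, another helicase subunit, read 53.1, 72.7 and 62.2 in late G1 and 38.6, 39.6 and 74 in CDT+DHT, which overlapped. PCNA, the sliding clamp of the polymerases, was at -1.28 ± 0.49 (adjusted p = 0.24).

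In the nucleotide supply list 1 of 16 was called, RRM2, the S-phase subunit of ribonucleotide reductase, with 10.5, 6.53 and 4.2 in the late G1 arrays, against 73.8, 71.5 and 52.7 in the CDT+DHT arrays. It fell by far more than the spread of either group (-3.11 ± 0.49, adjusted p = 0.00562) and passed in 5 of 6 fits without 1 array (adjusted p = 0.0623 without CDT+DHT array 1). Thymidylate synthase TYMS read 50.3, 59 and 57 in late G1 and 204, 214 and 138 in CDT+DHT, and the dUTPase gene DUT read 26.2, 23.8 and 53 in late G1 and 99.8, 143 and 116 in CDT+DHT. The groups did not overlap in either gene, but TYMS (-1.70 ± 0.46, adjusted p = 0.0998) and DUT (-1.85 ± 0.46, adjusted p = 0.0762) did not pass.

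Replication-dependent histones, made in S phase to package new DNA, had 5 of 51 measured members called lower, 0 higher and a median of -1.21, and arrays did not overlap downward in 25 of 51 (49%), against 0.489% of all genes called lower and 14% not overlapping downward. Their genes are near-identical copies, so features may share signal between them. H1-2, a linker histone, had 42.9, 52.7 and 52.3 in the late G1 arrays, against 243, 232 and 273 in the CDT+DHT arrays (-2.32 ± 0.41, adjusted p = 0.0123). H2BC5 had 21.5, 51.5 and 35.3 in the late G1 arrays, against 169, 220.5 and 201 in the CDT+DHT arrays (-2.49 ± 0.48, adjusted p = 0.0238). H4C2 had 23.7, 48 and 54.1 in the late G1 arrays, against 301, 285 and 301 in the CDT+DHT arrays (-2.87 ± 0.60, adjusted p = 0.039). All 3 were bright in CDT+DHT and separated from late G1. H1-5 (-2.46 ± 0.53, adjusted p = 0.0429) and H2BC7 (-2.25 ± 0.49, adjusted p = 0.0487) were the others. H1-2 passed in 2, H2BC5 in 1 and the other 3 in 0 of 6 fits without 1 array, with adjusted p from 0.0756 (H1-2) to 0.195 (H2BC7) at their highest, each without CDT+DHT array 1 except H2BC5 (array 2, 0.14).

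H2AX, the histone variant marked at DNA breaks, was the only called member of 16 replication checkpoint genes. It had 12.7, 8.01 and 2.41 in the late G1 arrays, against 95.1, 83.9 and 87.3 in the CDT+DHT arrays (-3.58 ± 0.59, adjusted p = 0.00891, up to 0.0635 without CDT+DHT array 1, and passing in 3 of 6 such fits). The rest of that list lay on the other side of 0 in most members, with a median of 0.53 and 11 of 16 above 0. Among 23 genes of homologous recombination and the Fanconi pathway 0 were called and the median was 0.10 (-0.03 without late G1 array 3). FANCG, of the Fanconi core complex, came closest at -3.18 ± 0.75 (adjusted p = 0.0576).

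Tubulins, the subunits of microtubules, had the lowest median of the 30 lists at -1.51. Of 18 measured, 3 were called lower (16.7%, against 0.489% of all genes) and 0 higher. Arrays did not overlap downward in 12 (66.7%, against 14% of all genes). TUBA1A had 81.4, 66.7 and 52.7 in the late G1 arrays, against 446, 592 and 422 in the CDT+DHT arrays (-2.85 ± 0.42, adjusted p = 0.00413) and passed in all 6 fits without 1 array. TUBA1B, its close paralog, had 117, 78.1 and 111 in the late G1 arrays, against 921, 445 and 415 in the CDT+DHT arrays (-2.45 ± 0.48, adjusted p = 0.0295), with CDT+DHT array 1 well above the other two. It passed in 0 of those fits (adjusted p up to 0.178 without CDT+DHT array 1), and features of these paralogs may share signal. TUBB1, the beta tubulin of platelets, was dim, with 3.62, 0.00733 and 0.00235 in the late G1 arrays, against 18.4, 15.3 and 5.98 in the CDT+DHT arrays (-2.96 ± 0.65, adjusted p = 0.0487, and 0.0659 with a pseudocount of 16). It passed in 1 of 6 fits without 1 array (up to 0.208 without CDT+DHT array 1). The brightest member named, TUBB4B, had 346, 292 and 339 in the late G1 arrays, against 1146, 1138 and 957 in the CDT+DHT arrays, a separation that did not pass (-1.73 ± 0.43, adjusted p = 0.0762). The main beta tubulin TUBB was at -1.85 ± 0.55 (adjusted p = 0.137), and 3 members, TUBB2B, TUBE1 and TUBD1, lay above 0, although TUBE1 was at -0.41 without CDT+DHT array 3.

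RNA polymerase II gave 1 called subunit of 13. POLR2A, the largest subunit, whose tail CDK7 and CDK9 phosphorylate, had 3.42, 7.82 and 2.97 in the late G1 arrays, against 63.2, 72.8 and 51.2 in the CDT+DHT arrays. The late G1 arrays were all below the lowest CDT+DHT array, with a difference of -3.55 ± 0.52 (adjusted p = 0.00413) that passed in all 6 fits without 1 array. The other 12 subunits had differences from -1.06 (POLR2C) to 2.22 (POLR2B), and the list's median was -0.31. POLR2B, the second largest subunit, had 193, 94 and 108 in the late G1 arrays, against 31, 32.4 and 17.7 in the CDT+DHT arrays, a gap that did not pass at 2.22 ± 1.06 (adjusted p = 0.356). This standard error pools the spread within all 7 groups of the fit, and not only the compared ones. POLR2E, shared by all 3 nuclear polymerases, was at 0.91 ± 0.47 (adjusted p = 0.403).

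Kinases and factors of elongation showed no common direction. Of 31 measured, 0 were called, 15 lay below 0 and 16 above, and the median was 0.05, a sign that turned under 4 of the alternatives. SUPT5H, of the pausing and elongation factor DSIF, read 63.2, 48.2 and 51.5 in late G1 and 138, 130.5 and 151 in CDT+DHT (-1.36 ± 0.44, adjusted p = 0.17). HEXIM1, the inhibitor of CDK9 with cyclin T, read 25.7, 2.25 and 8.21 in late G1 and 36.1, 46.4 and 15.5 in CDT+DHT, which overlapped (-1.73 ± 0.70, adjusted p = 0.275).

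**Figure D4:**
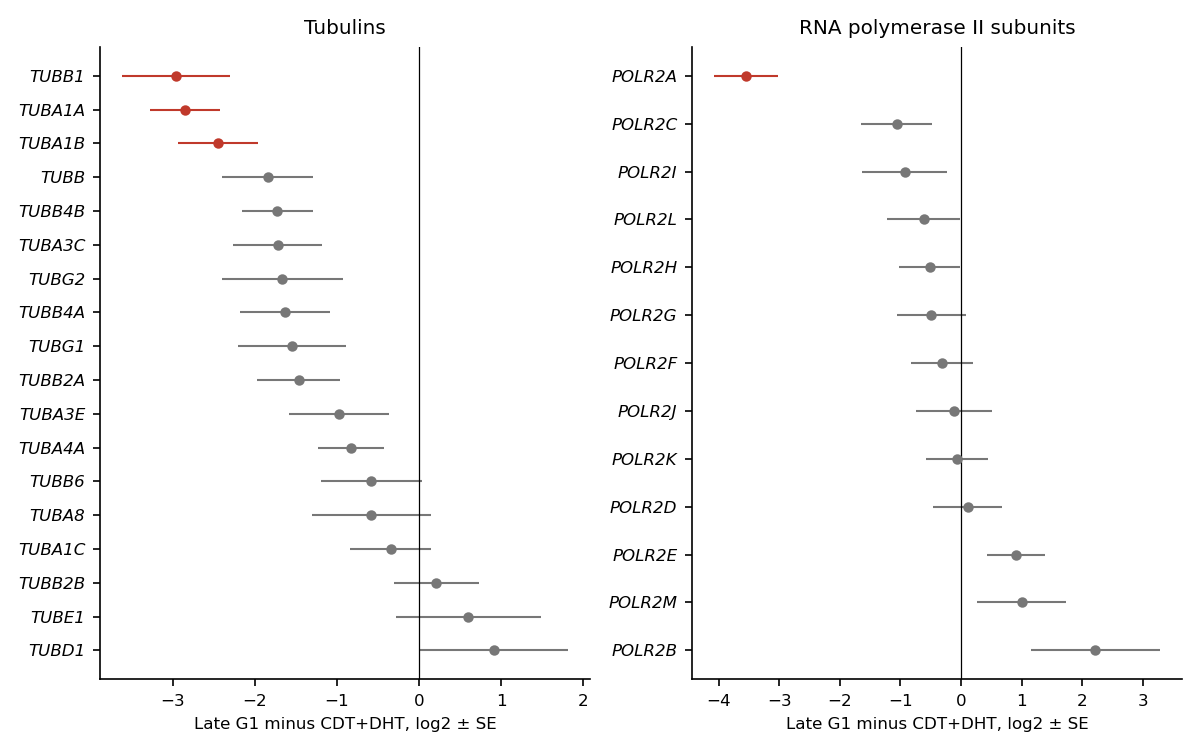
Log2 difference of late G1 minus CDT+DHT with its standard error for 18 tubulins (left) and 13 RNA polymerase II subunits (right). Red marks called genes. TUBB1, TUBA1A and TUBA1B are the called tubulins, and POLR2A (-3.55) stands apart from the other 12 subunits, the lowest of which is POLR2C (-1.06).

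Transcripts with short lives, whose RNA falls soon after transcription slows, were read next. Neither transcription rate nor RNA lifetime was measured here. Of 35 immediate early genes 1 was called lower and 0 higher, with a median of -0.39. IER3, a stress response gene, had 0.00331, 0.00873 and 0.0247 in the late G1 arrays, against 9.78, 7.07 and 1.73 in the CDT+DHT arrays (-2.61 ± 0.57, adjusted p = 0.0487). It was near 0 in all late G1 arrays but dim in CDT+DHT too, and its adjusted p was 0.18 with a pseudocount of 16 and up to 0.215 without CDT+DHT array 1, passing in 1 of 6 such fits. JUN, a subunit of AP-1, read 54.2, 61.2 and 55 in late G1 and 175, 195 and 190.5 in CDT+DHT, separated but not called (-1.70 ± 0.45, adjusted p = 0.087). MYC, whose RNA is short-lived, read 95.1, 64.7 and 98.8 in late G1 and 96.7, 109.9 and 85.8 in CDT+DHT, and MCL1, a short-lived survival gene, read 105, 58.4 and 66.7 in late G1 and 25.2, 66.5 and 38.2 in CDT+DHT. MYC (-0.19 ± 0.46, adjusted p = 0.905) and MCL1 (0.88 ± 0.68, adjusted p = 0.604) overlapped between groups and did not pass. The ID and MYC networks had 0 of 17 called (median 0.19, negative under 6 alternatives), with ID3, an inhibitor of differentiation factors, the lowest p of them at -1.69 ± 0.45 (adjusted p = 0.0924).

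Among 26 DNA damage response targets 1 was called. SFN (14-3-3 sigma), which holds cells before mitosis after DNA damage, had 1.63, 0.378 and 2.05 in the late G1 arrays, against 18.1, 32.3 and 16.8 in the CDT+DHT arrays (-3.33 ± 0.59, adjusted p = 0.013). All late G1 arrays were far below the CDT+DHT arrays, and it passed in 3 of 6 fits without 1 array (adjusted p up to 0.103 without CDT+DHT array 2). The median of the list was 0.19, which turned negative under 4 alternatives (-0.28 without CDT+DHT array 3). In the BCL2 family 0 of 17 were called (median -0.53), and the death effector BAX was closest at -2.81 ± 0.77 (adjusted p = 0.0986).

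Androgen-responsive genes, which the DHT common to both groups acts on, showed 0 of 41 induced members called, with a median of 0.38. Of the 41, 26 lay above 0 and 15 below. Arrays did not overlap upward in 13 (31.7%, against 10.8% of all genes) and downward in 4 (9.76%, against 14%). KLK3 read 647, 680.0 and 710.2 in late G1 and 496, 423 and 384 in CDT+DHT (0.65 ± 0.50, adjusted p = 0.602), against 90.8, 283 and 264 in CDT without DHT. KLK2 read 267, 315 and 332 in late G1 and 278, 216 and 224 in CDT+DHT (0.35 ± 0.42, adjusted p = 0.768), against 56.6, 49.5 and 52.8 in CDT. The late G1 and CDT+DHT values of KLK2 overlapped, and those of KLK3 were higher in late G1 in every array without passing. ABCC4, a transporter, was at 3.09 ± 1.05 (adjusted p = 0.19) and ZBTB10 at 2.52 ± 0.78 (adjusted p = 0.152), with wide errors. Of 16 androgen-repressed genes 1 was called, PLA2G2A, a secreted phospholipase, with 78.1, 52.2 and 60.1 in the late G1 arrays, against 477, 395 and 264 in the CDT+DHT arrays (-2.54 ± 0.57, adjusted p = 0.0487, up to 0.208 without CDT+DHT array 1, passing in 0 of 6 such fits). In CDT it read 209, 430.2 and 192, and in early G1, which shared the medium of late G1, 84, 26.2 and 129. CAMK2N1, an inhibitor of calcium/calmodulin kinase II, was at -1.23 ± 0.42 (adjusted p = 0.189) and the chemokine receptor gene ACKR3 at -1.37 ± 0.53 (adjusted p = 0.247).

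Metabolic and stress lists had 1 call in all. FADS2, a fatty acid desaturase, fell, with 51, 29.2 and 24.5 in the late G1 arrays, against 226, 203 and 168 in the CDT+DHT arrays (-2.53 ± 0.54, adjusted p = 0.0415, up to 0.178 without CDT+DHT array 1, passing in 1 of 6 such fits), in a list of 14 with a median of 0.43. Glycolysis and hypoxia genes had 0 of 26 called with a median of -0.84, and ENO2, an enolase, was lowest in p at -2.16 ± 0.58 (adjusted p = 0.0933). Sterol synthesis (0 of 18, median -0.40) and polyamine synthesis (0 of 14, median -0.36) had none. The unfolded protein and amino acid stress list had 0 of 25 called and a median of -0.04, with SLC7A11, the cystine importer, at 2.83 ± 0.74 (adjusted p = 0.0849). Oxidative and heat stress genes had 0 of 21 called (median -0.06), interferon-stimulated genes 0 of 26 (median -0.07, IFI6 at -1.99 ± 0.49, adjusted p = 0.0712) and NF-kB inflammatory genes 0 of 20 (median -0.60). The medians of the unfolded protein, oxidative, interferon and sterol lists changed sign under 4, 2, 3 and 1 of the alternatives. Arrays did not overlap downward in 14% and upward in 10.8% of all genes. In the same order, the shares were 14.3% and 35.7% for fatty acid synthesis and 42.3% and 7.69% for glycolysis and hypoxia. They were 16.7% and 22.2% for sterol, 35.7% and 21.4% for polyamine and 20% and 24% for unfolded protein genes. For oxidative, interferon and NF-kB genes they were 28.6% and 38.1%, 11.5% and 11.5%, and 35% and 5%.

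Of the 95 called genes 65 were in none of the lists. The largest fall among them was that of DAB1, an adaptor of reelin signalling, with 0.0617, 0.00515 and 0.00906 in the late G1 arrays, against 19.6, 22.4 and 13.6 in the CDT+DHT arrays (-4.22 ± 0.60, adjusted p = 0.00288). Next came GPRC5C, an orphan G protein-coupled receptor, with 0.0138, 0.019 and 4.46 in the late G1 arrays, against 26.8, 22 and 18 in the CDT+DHT arrays (-3.69 ± 0.68, adjusted p = 0.0172). TOX2, a high mobility group box factor, had 0.912, 2.83 and 0.685 in the late G1 arrays, against 34.6, 21.1 and 28.9 in the CDT+DHT arrays (-3.63 ± 0.49, adjusted p = 0.00202), but a second feature of that gene gave 0.26. The late G1 arrays were all near 0 in DAB1, 1 of them stood above the other two in GPRC5C and in TOX2, and none overlapped the CDT+DHT arrays. C1R, a complement protease, was at -3.55 ± 0.64 (adjusted p = 0.014), S100A10, a partner of annexin A2, at -3.54 ± 0.76 (adjusted p = 0.0446), DCTN1, a dynactin subunit, at -3.53 ± 0.62 (adjusted p = 0.0123) and PKIB, an inhibitor of protein kinase A, at -3.49 ± 0.60 (adjusted p = 0.0115). DAB1 and TOX2 passed in all 6 fits without 1 array, PKIB in 2 (adjusted p up to 0.0702, without CDT+DHT array 2), DCTN1 in 3 (adjusted p up to 0.0802, without CDT+DHT array 1), and GPRC5C, C1R and S100A10 in 1 each (up to 0.103, 0.103 and 0.195, without CDT+DHT array 1, 2 and 1).

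Some brighter called genes outside the lists were picked after their values were seen. TIMP2, an inhibitor of matrix metalloproteases, had 23.4, 23.2 and 23 in the late G1 arrays, against 216, 214 and 197 in the CDT+DHT arrays (-3.12 ± 0.47, adjusted p = 0.00413). CLU (clusterin), a secreted chaperone, had 13.1, 19.2 and 12 in the late G1 arrays, against 113, 139 and 104 in the CDT+DHT arrays (-2.94 ± 0.50, adjusted p = 0.0104). ATF5, a stress transcription factor, had 7.8, 9.89 and 9.73 in the late G1 arrays, against 124, 83.9 and 71.3 in the CDT+DHT arrays (-3.18 ± 0.48, adjusted p = 0.00413). ERBB2, a receptor tyrosine kinase, had 10.5, 11.7 and 6.45 in the late G1 arrays, against 73.1, 66.7 and 52.8 in the CDT+DHT arrays (-2.65 ± 0.52, adjusted p = 0.0295). In each the groups were far apart. TIMP2 passed in all 6 fits without 1 array, CLU in 3, ATF5 in 5 and ERBB2 in 0, with adjusted p up to 0.0709, 0.0594 and 0.14 for the last 3, without CDT+DHT array 2, 1 and 2. Of 11 neuroendocrine markers 2 were called lower: UCHL1, a ubiquitin hydrolase, with 0.197, 0.0019 and 0.0036 in the late G1 arrays, against 12.9, 14.7 and 8.68 in the CDT+DHT arrays (-3.59 ± 0.60, adjusted p = 0.00997, and 0.0771 with a pseudocount of 16), and RTN1, a reticulon, with 1.25, 1.51 and 0.0141 in the late G1 arrays, against 17.3, 20.6 and 11.3 in the CDT+DHT arrays (-3.25 ± 0.55, adjusted p = 0.0105). Their list's mean log2 level was 2.12 to 2.47 per late G1 array and 3.04 to 3.71 per CDT+DHT array. The 2 called made 18.2% of the list, against 0.489% of all genes. The other 9 were not called, and 9 of the 11 lay below 0. Arrays did not overlap downward in 3 of the 11 (27.3%, against 14% of all genes). The neuronal enolase gene ENO2 read 36.6, 35.5 and 16.8 in late G1 and 158, 132 and 103 in CDT+DHT, without overlap (-2.16 ± 0.58, adjusted p = 0.0933). The synaptic vesicle gene SYP, with 1.64, 0.00339 and 8.16 in late G1 and 6.49, 4.68 and 16.3 in CDT+DHT, and the secretory granule gene SCG2, with 3.07, 1.56 and 5.35 in late G1 and 1.12, 1.91 and 1.84 in CDT+DHT, overlapped. UCHL1 passed in 4 and RTN1 in 3 of 6 fits without 1 array, with adjusted p up to 0.0702 and 0.0769 without CDT+DHT array 2.

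Of the 5 genes higher in late G1, SDAD1 and MOCS1 lay below the median intensity of every CDT+DHT array. CYTL1 lay above that median in CDT+DHT arrays 1 and 2. SDAD1 had 78.9, 27 and 46.6 in the late G1 arrays, against 0.349, 3.72 and 0.0248 in the CDT+DHT arrays (4.66 ± 0.86, adjusted p = 0.0185). A second feature of SDAD1 gave 1.55 with an unadjusted p of 0.112. CYTL1, a cytokine-like secreted protein gene, had 34.1, 54 and 70.7 in the late G1 arrays, against 15, 11.5 and 3.68 in the CDT+DHT arrays (2.40 ± 0.50, adjusted p = 0.039). MOCS1, of molybdenum cofactor synthesis, had 7.47, 16.9 and 25.1 in the late G1 arrays, against 3.5, 1.09 and 0.324 in the CDT+DHT arrays (2.77 ± 0.58, adjusted p = 0.0391). The others were OSMR, the oncostatin M receptor, at 2.72 ± 0.55 (adjusted p = 0.0354), and TAS2R41, a bitter taste receptor gene, at 2.96 ± 0.66 (adjusted p = 0.0487). SDAD1 and CYTL1 passed with a pseudocount of 16 (adjusted p = 0.0432 and 0.00354), and MOCS1, OSMR and TAS2R41 did not (0.0598, 0.133 and 0.0955). With 1 array left out, SDAD1 passed in 2 of 6 fits, MOCS1, OSMR and CYTL1 in 1 and TAS2R41 in 0, with adjusted p up to 0.106, 0.162, 0.151, 0.153 and 0.183, without CDT+DHT array 1 for SDAD1, OSMR and TAS2R41 and without late G1 array 3 for MOCS1 and CYTL1.

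The comparisons within hormone-proficient medium held medium and DHT equal, but set late G1 against other drug arrests. The study had no unarrested cells in that medium. Drug and arrest phase changed together in these comparisons. They therefore cannot show how much of the difference from CDT+DHT would stay with the medium equal. They share the late G1 arrays with the comparison above. Against early G1 no gene passed in limma (0 higher and 0 lower of 18417), while 1307 genes had an unadjusted p under 0.05. The smallest adjusted p was 0.0639, that of CDCA3, with 0.00465, 2.45 and 0.00442 in late G1, against 12, 10.5 and 19.6 in early G1 (-3.26 ± 0.51). PLK1 had 4.28, 3.1 and 1.24 in late G1, against 23.3, 32.7 and 59.8 in early G1 (-3.33 ± 0.55, adjusted p = 0.0641). CDC25B had 4.49, 1.47 and 2.54, against 10.9, 55.7 and 57.3 (-3.23 ± 0.55, adjusted p = 0.0641). In all 3 genes every late G1 array was below every early G1 array, and the share of all genes so separated was not counted. With trend and robust settings in limma 20 genes were lower and 1 higher.

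Against the mean of the other 4 arrests, with 11 arrays, 127 genes were lower in late G1 (0.69% of genes) and 3 higher (0.0163%), and the median over all genes was -0.09. SFN stood furthest out, with 1.63, 0.378 and 2.05 in late G1, against 8.49 to 335 (median 116) in the 11 other arrested arrays (-5.37 ± 0.48, adjusted p = 1.16e-05). CDC25B was at 10.9 to 181 (median 82.4) in those 11 arrays (-4.47 ± 0.44, adjusted p = 3.17e-05) and PLK1 at 10.4 to 314 (median 36.7) (-3.74 ± 0.44, adjusted p = 0.000245). For all 3 the late G1 arrays lay below the lowest of the 11, and the share of all genes that did so was not counted. POLR2A, at 19.6 to 70.8 (median 33.1) in the other arrests, was again the only called polymerase II subunit of 13 (-2.83 ± 0.42, adjusted p = 0.00208). BIRC5 (-3.09 ± 0.37, adjusted p = 0.000245), RRM2 (-3.58 ± 0.39, adjusted p = 0.000111), CDCA3 (-3.39 ± 0.41, adjusted p = 0.000245), FOXM1 (-3.0 ± 0.42, adjusted p = 0.00134) and IER3 (-3.74 ± 0.46, adjusted p = 0.000295) were also called. These 9 genes passed in all 14 fits that left out 1 array of the arrests.

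Some mitotic genes were called lower in late G1 than in the other arrests without being called against CDT+DHT. TOP2A, the topoisomerase that untangles chromosomes, read 2.73, 3.63 and 0.144 in the late G1 arrays, against 6.46, 7.89 and 5.09 in the CDT+DHT arrays, and 11.6 to 220.1 (median 71.5) in the other arrests. That was -1.45 ± 0.82 against CDT+DHT (adjusted p = 0.446) and -4.24 ± 0.65 against the other arrests (adjusted p = 0.00271). MKI67, the proliferation antigen Ki-67, read 1.91, 0.0368 and 0.00688 in the late G1 arrays, against 2.76, 3.99 and 5.46 in the CDT+DHT arrays, and 1.73 to 55.1 (median 22.6) in the other arrests, or -1.77 ± 0.76 (adjusted p = 0.3) and -3.65 ± 0.61 (adjusted p = 0.00514). NUSAP1, a spindle microtubule binder, read 15.1, 5.13 and 6.08 in the late G1 arrays, against 25.2, 11.6 and 7.61 in the CDT+DHT arrays, and 26.6 to 331 (median 111) in the other arrests, or -0.68 ± 0.78 (adjusted p = 0.759) and -3.77 ± 0.62 (adjusted p = 0.00511). AURKA, the spindle pole kinase, and CCNB2, a B cyclin, gave -2.95 ± 0.50 (adjusted p = 0.0067) and -2.55 ± 0.56 (adjusted p = 0.0361) against the other arrests and -1.44 ± 0.63 (adjusted p = 0.311) and -0.75 ± 0.70 (adjusted p = 0.689) against CDT+DHT. Levels of the 3 first-named genes in CDT, without DHT, were 7.68, 34.8 and 25.1 for TOP2A, 3.62, 14.2 and 12.2 for MKI67 and 10.8, 81.7 and 77.5 for NUSAP1. Of the 14 fits that left out 1 array of the arrests, TOP2A, MKI67 and NUSAP1 passed in 13 each and not without late G1 array 3 (adjusted p = 0.0504, 0.0649 and 0.0533). AURKA passed in 12, with adjusted p = 0.0545 without late G1 array 1 and 0.0737 without late G1 array 3. CCNB2 passed in only 5, and its call was lost without late G1 array 2 or 3, early G1 array 1 or 3, early S array 2, late S array 3 or any G2/M array (adjusted p = 0.0525 to 0.272).

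**Figure D5:**
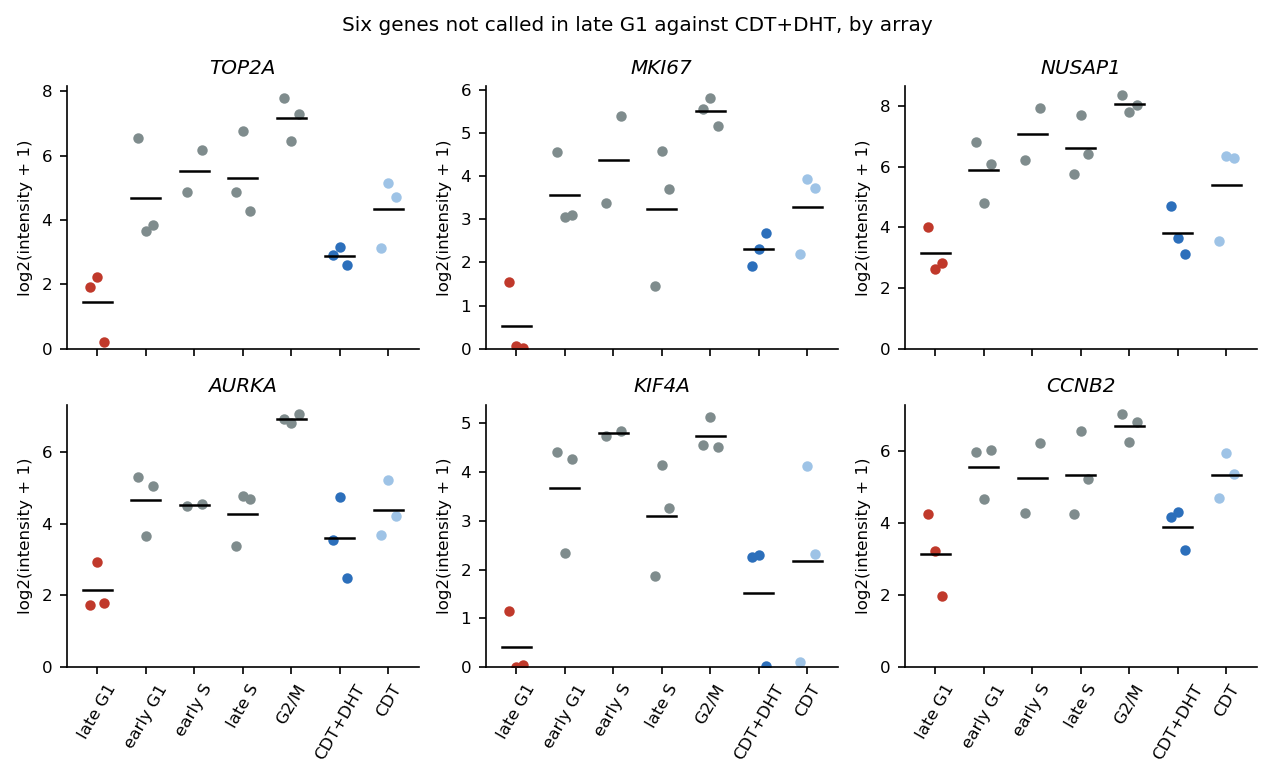
Intensity of 6 mitotic genes in each of the 20 arrays, as log2(intensity + 1), by group with late G1 (red) at the left, the other arrests in grey, and CDT+DHT (dark blue) and CDT (light blue) at the right. Points are arrays and lines are group means. G2/M is the highest or nearly the highest group in each, and late G1 the lowest, with CDT+DHT between them and not called apart from late G1.

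By list, calls against the other arrests were 8 lower of 27 mitotic kinases and regulators (median -1.56), 10 of 29 condensation, spindle and cytokinesis genes (median -2.17), 4 of 13 mitotic kinesins (median -2.0), 5 of 33 kinetochore genes (median -1.78), 6 of 43 replication genes (median -1.12) and 4 of 51 histones (median -1.08). Tubulins had 3 of 18 (median -0.87), androgen-induced genes 1 of 41 (median -0.52) and DNA damage response targets 1 of 26 (median -0.95). None of these lists had a gene called higher. Each stands beside 0.69% of all genes called lower and a median of -0.09. PLA2G2A, called lower against CDT+DHT, was at -0.13 ± 0.45 against the other arrests (adjusted p = 0.96), TUBA1A at -1.35 ± 0.34 (adjusted p = 0.0752) and DAB1 at -1.40 ± 0.48 (adjusted p = 0.245).

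The 3 genes higher in late G1 than in the other arrests were ASL, RGS11 and AIFM3. ASL, the argininosuccinate lyase of arginine synthesis, had 17.6, 17 and 18.8 in late G1, against 0.0101 to 6.48 (median 3.61) in the other arrests (2.27 ± 0.45, adjusted p = 0.0199) and 8.29, 11.3 and 13.1 in CDT+DHT (0.68 ± 0.56, adjusted p = 0.639). RGS11, a regulator of G protein signalling, had 14.5, 20.7 and 21.9, against 1.8 to 7.37 (median 2.86) in the other arrests (2.18 ± 0.40, adjusted p = 0.0116) and 6.38, 5.37 and 9.12 in CDT+DHT (1.34 ± 0.50, adjusted p = 0.228). AIFM3, a mitochondrial flavoprotein gene, had 77.6, 90.2 and 128, against 5.51 to 40.9 (median 26.6) in the other arrests (1.97 ± 0.42, adjusted p = 0.0308) and 36.1, 25.8 and 18.9 in CDT+DHT (1.85 ± 0.52, adjusted p = 0.112). In all 3 the late G1 arrays were above every one of the 11 other arrested arrays. The share of all genes that were so was not counted. Of the 14 fits that left out 1 array, ASL passed in 11, RGS11 in 12 and AIFM3 in 10, with the highest adjusted p, 0.116, 0.0944 and 0.195, without late G1 array 3. ASL and AIFM3 were also lost without late G1 array 1 or 2, RGS11 without late G1 array 2 and AIFM3 without early S array 1.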

How the data were processed

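The authors' deposited values were linear probe set intensities from Affymetrix gene arrays. The submitters' processing notes name Affymetrix Expression Console 1.1 for them, while summary method and normalization are not given in the sources used. Per the labels' protocols, Trizol RNA was amplified with an Ovation Pico kit and labelled with biotin. Of 33297 features 19460 had 1 gene symbol, updated through RefSeq, and for 769 genes the brightest feature was used, giving 18417 genes. No array was left out. The number of arrays limits the precision.

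Values were analysed as log2(intensity + 1) in R 4.3.3 with lmFit and eBayes of limma 3.58.1 (1 coefficient per group, all 20 arrays, two-sided, Benjamini-Hochberg over all genes, threshold 0.05). An exact permutation test of 3 arrays against 3 cannot go below 0.1, so none was made. On simulated data for late G1 against CDT+DHT over 18417 genes, 86% of 50 genes lowered by 4 were called. Of 50 lowered by 2, 20% were called. The log2(intensity + 1) scale has no negative values, and the median level of the genes tested was 3.17. A gene at that level cannot fall by 4, so these shares do not give the recovery in the real arrays, which was not tested.

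Genes were named by a rule: the 15 largest called differences per direction without overlap, up to 6 called and 3 not called per list, a fixed set, the 10 largest per direction in the other comparisons, and any member of the lists of cyclins, CDK inhibitors, CDC25 and WEE1, tubulins, polymerase II and its kinases. The groups, the lists and the rule were chosen with earlier results of these data known.

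Alternatives were quantile normalization, median centring, a pseudocount of 16, brighter genes, the mean of a gene's features, trend and robust settings, array weights, the replicate number as a block, the compared groups alone, the residual score as a covariate and leaving out each array. Leaving out the 4 arrays of highest residual score was chosen after seeing the data.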

Additional observations from a re-analysis of the deposited data

Results flagged for a closer look

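The fit tested whether the difference of late G1 from CDT+DHT was unlike the mean difference of the other arrests from it. This is the value of late G1 minus the other arrests, and each gene here passed at an adjusted p under 0.05 in limma. A pass does not say whether late G1 or the other arrests lay further from CDT+DHT. NUSAP1, CCNB2 and ASL, for example, were called here but not against CDT+DHT. Of all genes, 127 were lower and 3 higher. The lower ones named were SFN (-5.37), CDC25B (-4.47), TOP2A (-4.24), KIF20A (-3.83), NUSAP1 (-3.77), IER3 (-3.74), GNAI1 (-3.74), PLK1 (-3.74), KIF4A (-3.67), MKI67 (-3.65), RRM2 (-3.58), CDCA3 (-3.39), BIRC5 (-3.09), FOXM1 (-3.0), AURKA (-2.95), POLR2A (-2.83), CCNB2 (-2.55) and CCNB1 (-1.78), all as log2 differences. Of the 14 fits that left out 1 array of the arrests, CCNB2 passed in 5, CCNB1 in 8, GNAI1 in 11, KIF4A and AURKA in 12 each, and TOP2A, KIF20A, NUSAP1 and MKI67 in 13 each, while the other 9 lower genes passed in all 14. The highest adjusted p was 0.196 for CCNB1 and 0.166 for GNAI1, both without late G1 array 2, and 0.108 for KIF4A and 0.0504 for KIF20A, both without late G1 array 3. CCNB1 was also lost without late G1 array 1 or 3, early G1 array 3, early S array 2 or G2/M array 2, GNAI1 without late G1 array 3 or early S array 2, and KIF4A without late G1 array 2. GNAI1, an inhibitory G protein subunit, had 4.88, 0.0435 and 0.387 in late G1, against 0.194 to 151 (median 20.8) in the 11 other arrested arrays. KIF4A, a chromosome-bound kinesin, had 1.22, 0.00919 and 0.0326 in late G1, against 2.67 to 34 (median 20.2). The higher ones were ASL (2.27), RGS11 (2.18) and AIFM3 (1.97). With at most 3 arrays a group, no formal test for an outlying array was made.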

How the results depend on the processing

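Higher genes of late G1 against CDT+DHT (5) numbered 30 with quantile normalization, 19 with centred arrays, 41 with a pseudocount of 16, 42 among brighter genes, 3 with the mean of features, 30 with trend and robust settings, 216 with array weights, 409 with the residual score as a covariate and 0 with only the compared groups. Lower genes (90) numbered 184, 209, 402, 275, 61, 226, 863, 445 and 0 under the same settings in that order, and 55 without the 4 arrays of highest residual score (6 higher). The share of lower genes among calls was 94.7%, and 86%, 91.7%, 90.7% and 52.1% with quantile normalization, centring, the pseudocount of 16 and the residual score. Leaving out 1 array gave 0 to 12 higher and 10 to 54 lower. Against early G1, where 0 passed, quantile normalization gave 1 higher and 7 lower, centring 6 lower, the pseudocount of 16 gave 2 and 5, brighter genes 15 lower, trend and robust settings 1 and 20, array weights 1 and 15, the residual score 2 and 21, and leaving out the 4 arrays 3 lower, while 1 array left out gave 0 higher and 0 to 2 lower. Against the other arrests (3 higher, 127 lower), higher genes numbered 11, 10, 15, 9, 6, 25 and 32 with quantile normalization, centring, the pseudocount of 16, brighter genes, trend and robust settings, array weights and the residual score, and 18 without the 4 arrays. Lower genes numbered 196 among brighter genes, 352 with array weights, 350 with the residual score, 78 with only the compared groups and 388 without the 4 arrays. Leaving out 1 array gave 1 to 5 higher and 32 to 226 lower. The labels do not say whether the replicate numbers pair the samples. Same-numbered late G1 and CDT+DHT arrays correlated in their deviations at 0.08, -0.10 and 0.09. For late G1 and early G1 arrays these values were 0.27, 0.13 and -0.03. With 3 arrays a group this cannot settle the pairing. The replicate block gave 1 higher and 45 lower against CDT+DHT. The cause of these shifts was not tested, apart from fewer arrays or genes where a setting removes them.

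Of the genes named with a difference against CDT+DHT, none of the 47 called changed direction under the alternatives, and 5 of the 61 not called did. With 1 array left out, CDK1 (0.21) ranged from -0.037 to 0.55, CDK2 (-0.14) from -0.23 to 0.036, CDKN1B (0.007) from -0.27 to 0.33, GNAI1 (-0.41) from -1.18 to 0.070 and TUBE1 (0.60) from -0.41 to 1.29. Without the 4 arrays CDK1 was at -0.037, CDKN1B at -0.26 and TUBE1 at -0.41, and CDKN1B was at -0.016 with centring and -0.25 with array weights. Of the genes named against the other arrests, 0 of 21 called and 0 of 3 not called changed direction, and against early G1 0 of 3. Of 35 list medians against CDT+DHT, 24 kept their sign in every setting. Of the 90 lower genes, 9 did not pass with a pseudocount of 16, and many late G1 intensities were near 0, where differences depend on that constant. With 1 value per gene and no detection call in these data, a dim signal cannot be set apart from background.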

Other observations

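The genes called lower in late G1 than in CDT+DHT were shorter in the genome than the genes tested, with a median span of 14.5 kb for 90 genes, against 24.5 kb for 18392 genes with a RefSeq span, and their median level over all groups was 4.48 on the log2(intensity + 1) scale, against 3.17. In late G1 itself, 55 of the 90 had a mean intensity below the array medians. This is a description of these lists, and span, level and intensity were not tested as a cause.

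Several genes with no call had late G1 arrays well above CDT+DHT arrays but also CDT+DHT array 3 far below its group. ZBTB10, a zinc finger gene induced by androgen, read 30.9, 18 and 18.6 in late G1 and 8.5, 5.61 and 0.00478 in CDT+DHT, and ABCC4 read 95.4, 41.6 and 30.01 in late G1 and 16.8, 6.6 and 0.541 in CDT+DHT. SLC7A11 read 98.2, 58.6 and 61.1 in late G1 and 19.9, 11.8 and 2.77 in CDT+DHT. In each, CDT+DHT array 3 was the lowest of the 6 arrays.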
